A study of Arabidopsis thaliana with 12 samples.

Results

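The transcripts described here are those made inside the chloroplast (the plastid) of Arabidopsis thaliana from the plastid's own genome. A probe set was taken as a member when the platform's gene table paired it with exactly 1 gene of the plastid genome. This gave 69 probe sets, each of a different gene, among the 22746 probe sets of the array that are not controls. A further 8 probe sets were paired with 2 plastid loci each and are not members. Of the 69 members, 66 were bright enough to be tested, beside 13647 probe sets tested in all. The 3 that were too dim were rpoB, rps14 and ndhF.

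The study gave ire1a ire1b double mutants and wild-type (WT) seedlings an inhibitor of transcription, then tunicamycin or mock treatment. It measured total RNA on arrays. IRE1 is a sensor of misfolded protein in the membrane of the endoplasmic reticulum, and its RNase domain cuts RNA. The 4 groups of 3 arrays were ire1a ire1b with tunicamycin, ire1a ire1b with mock, WT with tunicamycin and WT with mock. All seedlings were of the Columbia (Col-0) ecotype and 10 days old, and were grown at 22 °C. Every group, the mock groups included, received actinomycin D at 75 µM, which inhibits transcription by binding DNA. Tunicamycin at 5 mg per litre, or DMSO as mock, followed 2 h later and stayed on for 5 h. Tunicamycin blocks N-glycosylation, so that misfolded protein builds up in the endoplasmic reticulum. How far actinomycin D stopped transcription in the plastid is not shown by these data. A higher signal below is higher relative to the rest of the array, and new synthesis and slower loss cannot be told apart. Whether the 3 seedling samples behind a group were grown and treated separately is not in the labels, and the p-values below therefore cover the spread of these arrays alone, technical spread included. The labels do not give the mutant alleles beyond the genotype name.

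Plastid genes are transcribed by a bacterial type polymerase, whose core subunits (rpoA, rpoB, rpoC1 and rpoC2) the plastid itself encodes, and by phage type polymerases encoded in the nucleus. Most lie in operons that are read into long shared RNAs, and these are then cut, trimmed and held stable by nuclear-encoded RNA-binding proteins. The products fall into the photosynthetic complexes (photosystem II, cytochrome b6f, photosystem I, ATP synthase and the NDH complex), the machinery of gene expression (polymerase and ribosome), and a few others such as rbcL, the large subunit of the enzyme that fixes carbon dioxide. Transcripts of the plastid lie behind its envelope, apart from the endoplasmic reticulum. In plastids, unlike the cytosol, a poly(A) tail marks an RNA for decay; the labels name a labelling kit directed at the 3' end, and how it captures plastid RNA is not given in the sources used here.

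Plastid members were bright as a group, with 25 of the 66 at a mean log2 signal of 13 or above. They made up 2.65 ± 0.17% of the summed signal of an array in ire1a ire1b with tunicamycin, 2.67 ± 0.04% in ire1a ire1b with mock, 2.66 ± 0.03% in WT with tunicamycin and 2.48 ± 0.11% in WT with mock (SD, n = 3 each). The median signal of an array lay between 106.7 and 118.8. The 3' over 5' signal of the actin, GAPDH and ubiquitin control probe sets, a measure of RNA integrity, lay between 2.12 and 2.61 on the log2 scale. The 3' signal was thus the brighter on every array. By group the ratio ran from 2.15 to 2.59 in ire1a ire1b with tunicamycin and from 2.12 to 2.25 with mock. In WT it ran from 2.26 to 2.61 with tunicamycin and from 2.21 to 2.42 with mock. The ratio was not held against a limit for intact RNA, and its part in the plastid values was not tested. Of the names listed for photosynthetic shoot markers, 0 of 11 were paired with a probe set in the gene table used. The tissue label was therefore not checked through them. The shoot and root marker lists give some genes under alternative names. Counts of paired genes here and below describe that table, and an unpaired gene may still have a probe set on the array. Of the root marker names, 1 of 10 was paired, and its mean over the 12 arrays lay below the brightness filter. Its signals were 43.6 to 64.1 in ire1a ire1b with tunicamycin and 70.4 to 98.4 in ire1a ire1b with mock. In WT they were 37.5 to 65.2 with tunicamycin and 68.8 to 80.6 with mock. These arrays hold RNA of whole seedlings, so fewer plastid-bearing cells and less plastid RNA per cell cannot be told apart. The array number limits the precision of every value below.

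In WT seedlings 1 plastid transcript was higher with tunicamycin and none was lower past the test. Of the 66 members 1 was higher at an adjusted p below 0.05, against 0.432% of all tested probe sets. The 1 that was higher was petG, a small subunit of the cytochrome b6f complex. Downward, 0 of 66 passed, against 5.77% of all tested probe sets. At an unadjusted p below 0.05, limma counted 4 members higher and 0 lower, against 5.11% and 10.2% of all. The median change of the members was 0.11 (log2, tunicamycin minus mock), beside 0.09 for all tested probe sets, and 55 of 66 lay above 0, against 66.8% of all. Without WT mock array 3 the members' median was 0.06 with 43 above 0, and without WT mock array 1 it was 0.18.

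The petG signal was 794.4, 503.6 and 676.6 in WT with tunicamycin, against 338.7, 450.1 and 389.6 in WT with mock. All 3 tunicamycin arrays lay above all 3 mock arrays. The change was 0.73 ± 0.20 (log2, SE), with an adjusted p of 0.042 in limma. The call sat close to the threshold. It ended with no filter on dim probe sets, with no intensity trend in the variance, without ire1a ire1b mock array 1, without WT tunicamycin array 1 or 3, and without any single WT mock array, and over all 12 fits that left out an array the adjusted p lay between 0.0194 and 0.211. Signals of the 2 groups were apart in the upward direction for 11 of 66 members, against 14.2% of all tested probe sets, and in the downward direction for 0, against 11.8%.

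Other members with small unadjusted p in WT were psbJ, a small subunit of photosystem II, and the ribosomal protein genes rps19 and rpl32. Each had a change near 0.3 and none passed the test. The psbJ signal was 14256, 14482 and 12780 in WT with tunicamycin, against 11873, 11378 and 9795 in WT with mock, a change of 0.33 ± 0.15 (limma adjusted p = 0.31). The rps19 signal was 10161, 9939 and 12600 with tunicamycin, against 9096, 8537 and 8707 with mock, a change of 0.30 ± 0.13 (limma adjusted p = 0.28). In both genes the groups did not overlap. For rpl32, at 10965, 9508 and 10670 with tunicamycin against 9685, 7593 and 8113 with mock, the groups did overlap, and the change was 0.30 ± 0.13 (limma adjusted p = 0.29).

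By function, the 17 tested genes of polymerase and ribosome had a median change of 0.25 in WT. Of these, 17 of 17 lay above 0, against 66.8% of all tested probe sets. The count was 16 with each array centred on its median, and 16 with quantile normalization. The 44 tested genes of the photosynthetic complexes and their assembly had a median of 0.10, with 34 above 0. None of the 17 passed the test. The lowest member was psaA, which encodes a reaction centre protein of photosystem I, with signals of 755.3, 877.4 and 554.3 under tunicamycin against 937.0, 993.1 and 818.0 under mock. Those groups overlapped and the change was −0.35 ± 0.28 (limma adjusted p = 0.60). Among familiar plastid genes, rbcL had a change of 0.05 ± 0.19, psbA (the D1 protein of photosystem II) −0.08 ± 0.24, and atpB (a catalytic subunit of ATP synthase) −0.06 ± 0.09. Each of these changes was smaller than its SE. Other familiar genes, such as psaA and petG, lay further from 0.

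**Figure D1:**
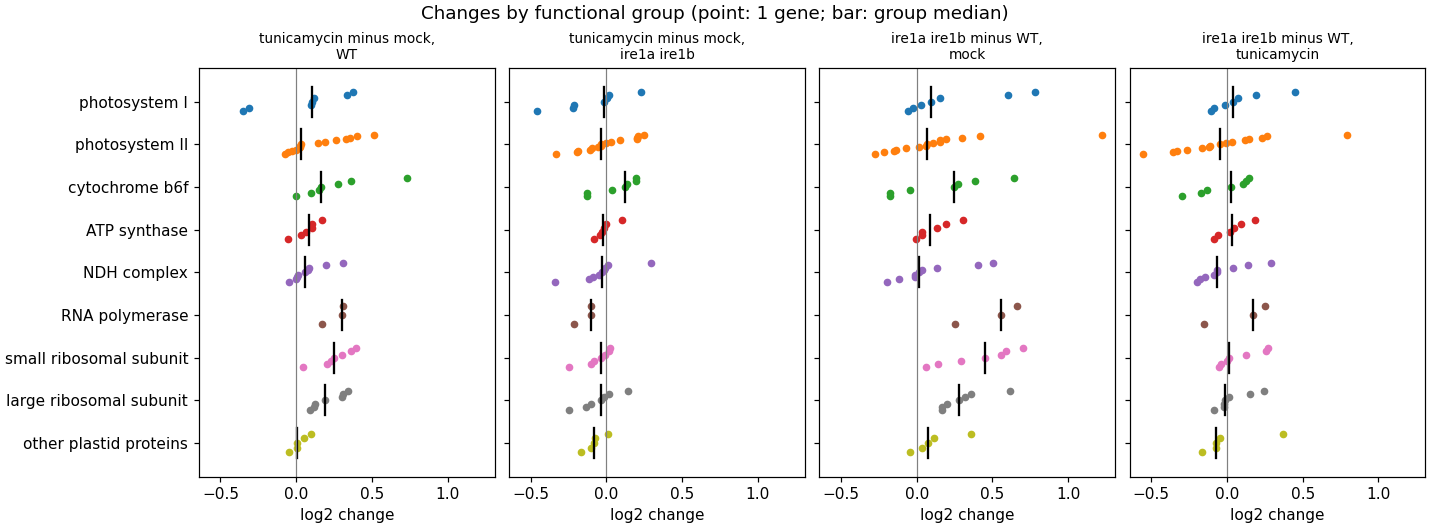
Log2 change of each tested plastid-encoded gene (points) by functional group, with the group median as a black bar, for 4 comparisons named above the panels. The x axis is the log2 change. The polymerase and ribosomal groups lie to the right of 0 in the panels of tunicamycin in WT and of the genotypes under mock, both of which use the WT mock arrays, and mostly left of 0 in the panel of tunicamycin in ire1a ire1b, where 13 of 17 lie above 0 once tunicamycin array 2 is left out.

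In ire1a ire1b seedlings the same treatment moved no plastid transcript past the test. Of 66 members 0 passed upward and 0 downward in limma, against 0.044% and 0% of all tested probe sets, and at an unadjusted p below 0.05 the counts were also 0 and 0, against 2.34% and 1.33% of all. The median change was −0.03, beside 0.01 for all tested probe sets, and 23 of 66 members lay above 0, against 52.7% of all. The sign of this median turned on single arrays: it was 0.02, 0.04 and 0.00 without ire1a ire1b tunicamycin array 2, tunicamycin array 3 and mock array 1. Of the 17 polymerase and ribosomal genes 4 lay above 0, with a median of −0.08, but 13 did without tunicamycin array 2, with a median of 0.12. The signals of the groups were apart for 1 member, petD, a subunit of cytochrome b6f and the dimmest one tested, against 3.96% of all tested probe sets in that direction. Downward the groups were apart for 0 members, against 2.71% of all. The petD signal was 73.0, 91.5 and 77.2 with tunicamycin, against 68.8, 71.7 and 69.5 with mock.

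The petG signal in ire1a ire1b was 925.0, 574.2 and 638.4 with tunicamycin, against 544.7, 653.0 and 638.1 with mock. These groups overlapped, and the change was 0.19 ± 0.20. The difference between the genotypes' responses (the WT effect minus the ire1a ire1b effect) was 0.54 ± 0.28 for petG, with a limma adjusted p of 0.52, so the petG response was not shown to differ between genotypes. Over all members that difference passed for 0 upward and 0 downward, against 0.0879% and 2.98% of all tested probe sets. At an unadjusted p below 0.05 it was positive for 2 members, ycf3 and psbJ, against 2.87% of all, and negative for 0, against 8.49%. The median of the difference was 0.14, beside 0.07 for all tested probe sets, and 57 of 66 members lay above 0, against 60.2% of all. Single arrays moved this median by over 1.5 times. It was 0.28, with 62 above 0, without ire1a ire1b tunicamycin array 1 and 0.07, with 41 above 0, without tunicamycin array 3 of that genotype. It was 0.22 without ire1a ire1b mock array 3, 0.23 without WT mock array 1 and 0.08 without WT mock array 3.

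The ycf3 gene encodes an assembly factor of photosystem I. Its signal was 4662, 2514 and 5216 in ire1a ire1b with tunicamycin, 5684, 4740 and 5880 in ire1a ire1b with mock, 3683, 4758 and 3577 in WT with tunicamycin, and 3948, 2538 and 3131 in WT with mock. Within ire1a ire1b the change was −0.46 ± 0.23 and within WT 0.33 ± 0.23, and both pairs of groups overlapped. The difference of the responses was 0.79 ± 0.33 (limma adjusted p = 0.35). For psbJ it was 0.52 ± 0.21 (limma adjusted p = 0.34). Averaged over both genotypes, tunicamycin against mock gave 0 members past the threshold in either direction, against 0.374% upward and 2.67% downward of all tested probe sets. At an unadjusted p below 0.05, 2 members were higher, against 4.37% of all, and 0 were lower, against 7.62%. The median was 0.05, beside 0.04 for all tested probe sets, and 43 of 66 lay above 0, against 61.7% of all. The larger of the 2 was petG, at 0.46 ± 0.14 (limma adjusted p = 0.12).

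Between the genotypes under mock no plastid transcript passed the test, while 17 of the 17 tested polymerase and ribosomal genes had a change above 0. In limma 0 of 66 passed upward and 0 downward, against 0.161% and 0.322% of all. At an unadjusted p below 0.05, 11 members (16.7%) were higher, against 2.69% of all tested probe sets, and 0 were lower, against 5.39%. Groups were apart upward for 13 members (19.7%), against 5.32% of all, and downward for 1, petB, against 8.39%. The median change was 0.15 (ire1a ire1b minus WT), beside −0.02 for all tested probe sets, and 50 of 66 lay above 0, against 45.2% of all. Without ire1a ire1b mock array 1 the median was 0.08, and without WT mock array 3 it was 0.10.

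The count of 11 turned on single arrays. It was 5 without WT mock array 3, against 2.46% of all tested probe sets in that fit. It was 6 without ire1a ire1b mock array 1 (1.85%), 7 without WT mock array 2 (2.26%) and 19 without WT mock array 1 (2.67%). In this comparison the members' deviations from their group means correlated between arrays of the same number, at 0.76, 0.43 and 0.72 for numbers 1, 2 and 3. With the number as a block, 21 members had an unadjusted p below 0.05, against 3.88% of all, and 1 passed the test, psbN, against 0.3% of all. This comparison and that of tunicamycin with mock in WT share the 3 WT mock arrays, which have the lowest plastid share of signal of the 4 groups, so a low WT mock value raises both changes. The 2 sets of changes are given side by side in the plot in genome order and no relation between them was computed.

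**Figure D2:**
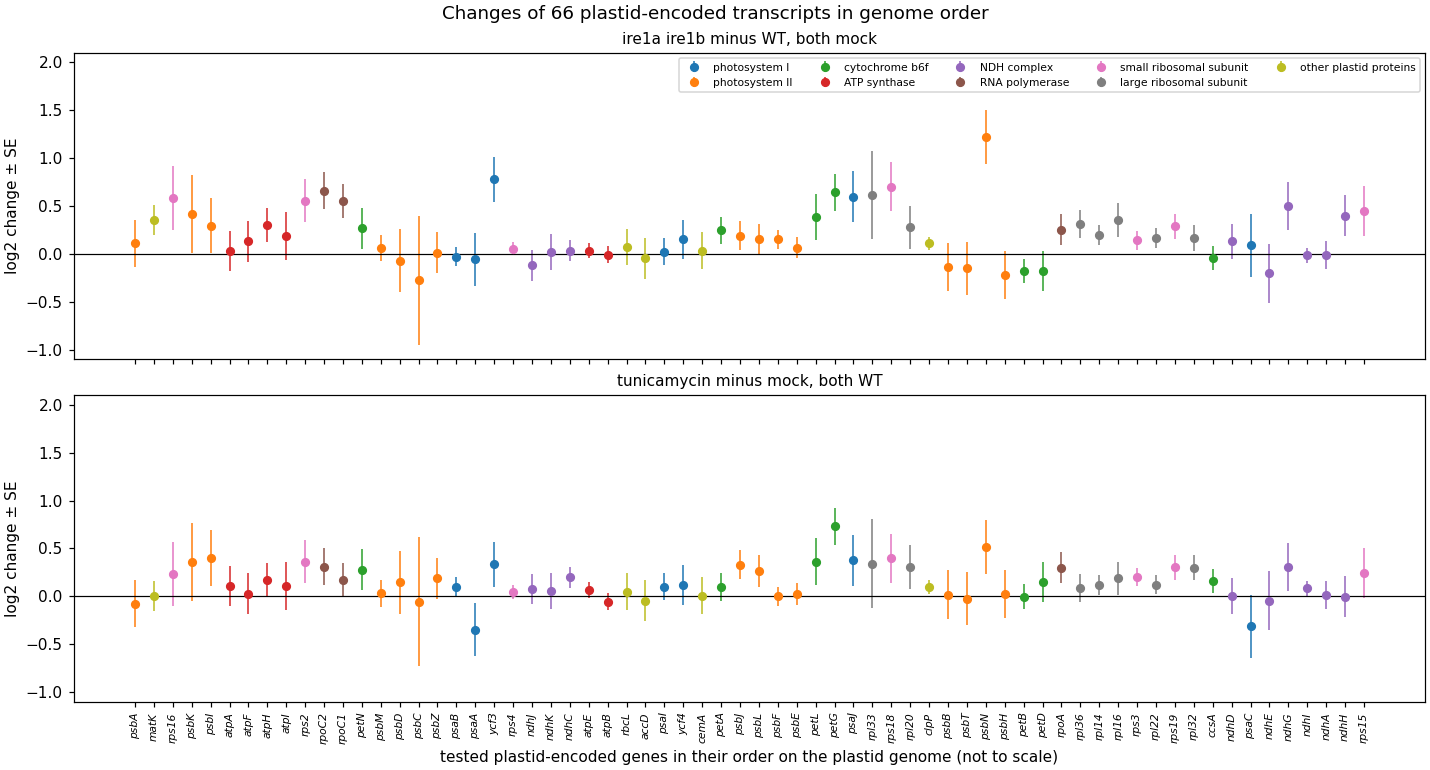
Log2 change ± SE of the 66 tested plastid-encoded genes in their order along the plastid genome, not to scale, for ire1a ire1b minus WT under mock (top) and tunicamycin minus mock in WT (bottom). Colours mark functional groups. The neighbours petL, petG, psaJ, rpl33 and rps18 lie above 0 in both panels, and psbN, at 1.22 in the top panel, stands between psbT and psbH, which lie below 0 there.

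The largest difference under mock was that of psbN, whose product is needed in tobacco to assemble photosystem II. Its signal was 340.8, 536.0 and 499.9 in ire1a ire1b with mock, against 163.8, 218.5 and 201.3 in WT with mock. Every ire1a ire1b array lay above every WT array, and the change was 1.22 ± 0.28 (limma adjusted p = 0.10). With the array number as a block it was 1.22 ± 0.25 and passed (limma adjusted p = 0.045). The gene lies on the strand opposite to its neighbours psbT and psbH, which belong to the psbB operon.

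Those neighbours did not have higher signals in the mutant. The 5 genes of that operon are psbB, psbT and psbH of photosystem II, and petB and petD of cytochrome b6f. Under mock 0 of 5 lay above 0, against 45.2% of all tested probe sets, with changes between −0.22 and −0.13 and a median of −0.18. The petB signal was 13844, 14335 and 13716 in ire1a ire1b against 15060, 16635 and 15684 in WT, so the groups did not overlap, and the change was −0.18 ± 0.13 (limma adjusted p = 0.81). None of the 5 passed the test, and when single arrays were left out at least 4 stayed below 0.

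Among the polymerase genes, rpoC2 and rpoC1 encode the beta'' and beta' subunits. The rpoC2 signal was 1273, 1121 and 1338 in ire1a ire1b with mock, against 831.4, 755.9 and 767.9 in WT with mock, a change of 0.66 ± 0.19 (limma adjusted p = 0.29). The rpoC1 signal was 3444, 2300 and 3295 in ire1a ire1b with mock, against 1882, 2159 and 2023 in WT with mock, a change of 0.56 ± 0.18 (limma adjusted p = 0.36). In both genes the genotypes did not overlap. The remaining tested polymerase gene, rpoA, encodes the alpha subunit and lies in another operon. Its signal was 12437, 10719 and 12850 in ire1a ire1b against 12814, 9557 and 8248 in WT, with overlap and a change of 0.25 ± 0.16. The rpoB signal was too dim to be tested, at 46.8, 52.7 and 58.5 in ire1a ire1b against 21.1, 39.0 and 40.9 in WT.

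Of the ribosomal protein genes 14 of 14 tested lay above 0 under mock, against 45.2% of all tested probe sets, with a median of 0.30. Of these, 4 had an unadjusted p below 0.05 in limma, against 2.69% of all in that direction, while 0 passed the test. The rps18 signal was 2158, 1369 and 2102 in ire1a ire1b against 1270, 1121 and 1008 in WT, a change of 0.70 ± 0.26 (limma adjusted p = 0.47). The rps2 signal was 4339, 4119 and 4150 in ire1a ire1b against 3083, 3022 and 2494 in WT, a change of 0.56 ± 0.22 (limma adjusted p = 0.53). Neither gene's genotypes overlapped. The smallest change was that of rps4, 0.06 ± 0.07, at 14832, 14306 and 14248 in ire1a ire1b against 14226, 13255 and 14206 in WT.

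Polymerase and ribosomal genes together had a median of 0.32 under mock, with 17 of 17 above 0, against 45.2% of all tested probe sets. This count was 17 of 17 in each fit that left out 1 array, with a median between 0.27 and 0.43. Each of those fits kept WT mock array 2 or 3, where these genes had medians of −0.26 and −0.29 from their mean over the 12 arrays. The genes are read from the same arrays and several share an operon, so the count is a description and not a measure of replication. The 44 photosynthesis genes had a median of 0.06 and 29 above 0. By complex, the median was 0.25 for cytochrome b6f (7 genes), 0.09 for photosystem I (7 genes), 0.09 for ATP synthase (6 genes), 0.07 for photosystem II (15 genes) and 0.02 for the NDH complex (9 genes). A test of these groups against each other was not made, since the lists were chosen with results known.

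Several of the higher values came from neighbouring genes of unlike function. The operon of petL, petG, psaJ, rpl33 and rps18 mixes subunits of cytochrome b6f, photosystem I and the ribosome. Of these genes 5 of 5 lay above 0, against 45.2% of all tested probe sets, with a median of 0.62. The petG signal was 544.7, 653.0 and 638.1 in ire1a ire1b against 338.7, 450.1 and 389.6 in WT, a change of 0.64 ± 0.20 (limma adjusted p = 0.33). The psaJ signal was 1700, 1593 and 2124 in ire1a ire1b against 1561, 1095 and 966.9 in WT, a change of 0.60 ± 0.27 (limma adjusted p = 0.60). In both genes every ire1a ire1b array lay above every WT array. The genotypes overlapped for rpl33, whose change is the operon's median, at 2225, 1946 and 4216 against 2059, 1378 and 1787. They also overlapped for petL, the lowest of the operon at 0.39, at 1169, 1070 and 676.4 against 869.8, 828.0 and 524.5. Of another operon, atpB had a change of −0.01 ± 0.09 and atpE, also a subunit of ATP synthase, 0.04 ± 0.08. Genes of 1 operon share transcripts and are not independent of each other.

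The ycf3 change under mock was 0.78 ± 0.23 (limma adjusted p = 0.32), with no overlap of the genotypes in the signals given above. The matK gene encodes a factor for splicing of plastid introns. Its signal was 5979, 3937 and 5581 in ire1a ire1b with mock against 4229, 3775 and 3897 in WT with mock. These overlapped, and the change was 0.36 ± 0.16 (limma adjusted p = 0.58). Genes read mainly by the nuclear-encoded polymerase in other work (accD, clpP, rpoC1 and rpoC2 here) had a median of 0.33 but unlike values. The value of accD, a subunit of acetyl-CoA carboxylase, was −0.04 ± 0.22, and that of clpP, a subunit of the Clp protease, 0.11 ± 0.07.

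**Figure D3:**
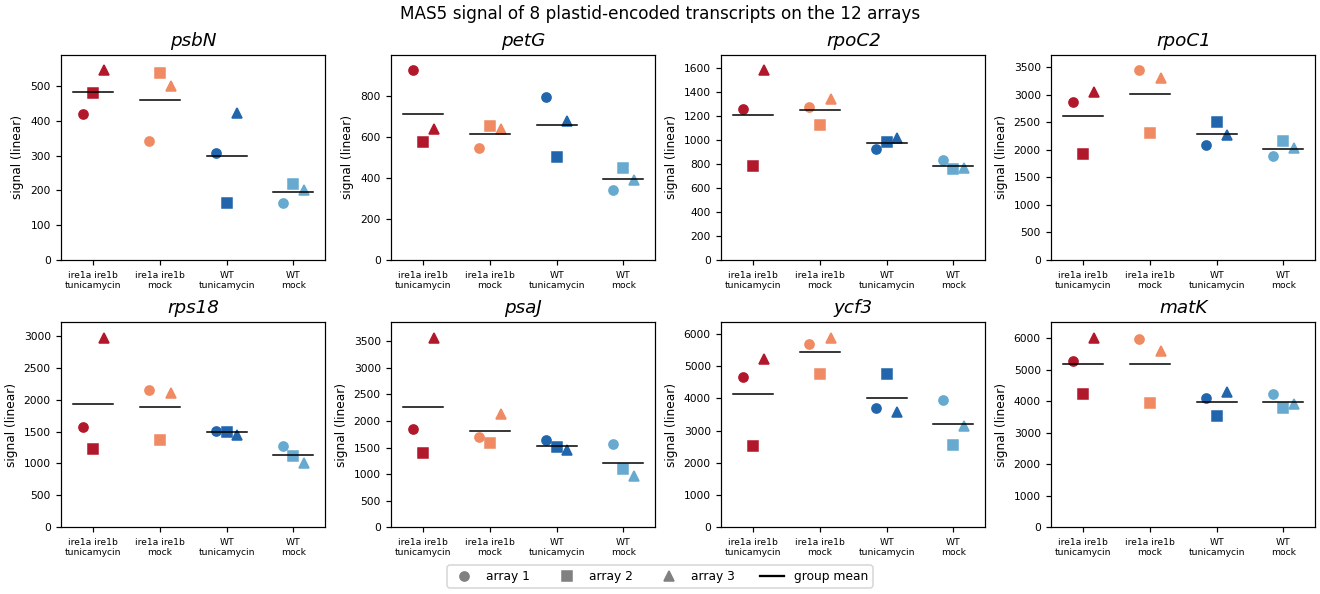
Linear signal of 8 plastid-encoded transcripts on the 12 arrays by group, with circles, squares and triangles for arrays 1, 2 and 3 and a black line for the group mean. The WT mock arrays are low for psbN (163.8 to 218.5), and tunicamycin array 2 of ire1a ire1b is the lowest of its group for rpoC2, rpoC1, rps18, psaJ, ycf3 and matK.

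Under tunicamycin the genotype difference of the plastid transcripts had a median near 0, and no member passed the test. In limma 0 of 66 members passed upward and 0 downward, against 6.68% and 3.03% of all tested probe sets. At an unadjusted p below 0.05, 2 were higher, against 10.9% of all, and 2 were lower, against 12.1%. The groups were apart for 0 members upward and 0 downward, against 11.5% and 16.3% of all. The median change was −0.01, beside −0.08 for all tested probe sets, and 32 of 66 lay above 0, against 37.1% of all. The 17 polymerase and ribosomal genes had a median of 0.01, with 10 above 0, and single arrays decided this: 16 lay above 0, with a median of 0.15, without ire1a ire1b tunicamycin array 2, and 5, with a median of −0.09, without tunicamycin array 3 of that genotype. The median over all members ran from −0.11 without ire1a ire1b tunicamycin array 1 to 0.03 without WT tunicamycin array 2, and was 0.06 with each array centred on its median.

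The 2 members that were higher were psbN and matK. The psbN signal was 420.0, 479.2 and 545.4 in ire1a ire1b with tunicamycin, against 307.5, 162.2 and 422.2 in WT with tunicamycin. One WT array reached the lowest ire1a ire1b array, and the change was 0.79 ± 0.28 (limma adjusted p = 0.099). The matK signal was 5283, 4229 and 6016 in ire1a ire1b against 4114, 3537 and 4304 in WT, with overlap and a change of 0.37 ± 0.16 (limma adjusted p = 0.17). The 2 that were lower were psbJ, at −0.33 ± 0.15 (limma adjusted p = 0.21), and petB, at −0.30 ± 0.13 (limma adjusted p = 0.18). The petB signal was 15780, 13583 and 9745 in ire1a ire1b against 15568, 15762 and 15870 in WT, and array 3 of the mutant was the lowest of the 6.

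Averaged over both treatments, 1 member passed the test, psbN, against 4.44% of all tested probe sets. It was higher in ire1a ire1b by 1.01 ± 0.20, with a limma adjusted p of 0.0070. The call held in all 12 fits that left out an array, with adjusted p between 0.00264 and 0.0234. The 6 ire1a ire1b arrays ran from 340.8 to 545.4 and the 6 WT arrays from 162.2 to 422.2, so a single WT array (tunicamycin array 3) lay within the mutant range. Downward, 0 members passed, against 3.85% of all. At an unadjusted p below 0.05, 9 members were higher, against 9.17% of all, and 1 was lower, against 13%. The median was 0.07, beside −0.04 for all tested probe sets, and 45 of 66 lay above 0, against 42% of all. With 1 array left out the median ran from 0.02 without ire1a ire1b tunicamycin array 1 to 0.11 without WT mock array 1. Next to psbN, rpoC2 had a value of 0.46 ± 0.14 (limma adjusted p = 0.055), matK of 0.36 ± 0.11 (limma adjusted p = 0.063) and rpoC1 of 0.36 ± 0.13 (limma adjusted p = 0.099). For tunicamycin minus mock, psbN had 0.09 ± 0.28 in ire1a ire1b and 0.52 ± 0.28 in WT, and the difference of the responses was 0.43 ± 0.40 (limma adjusted p = 0.78).

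The signals of several plastid transcripts spread widely between the arrays of a group. The median within-group SD was 0.27 (log2) over the 66 members, beside 0.21 over all tested probe sets. Among members with a mean log2 signal above 10, 37 of 48 had an SD above 0.143, the median of the 3163 tested probe sets that bright. In psbC, which encodes an antenna protein of photosystem II, the SD was 1.07 and ranked 2 of those 3163. The ribosomal protein gene rpl33 ranked 8, at 0.73, and psbK, a small subunit of photosystem II, ranked 17, at 0.64. At the other end clpP had an SD of 0.05 and atpE of 0.09.

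The psbC signal was 3418, 1915 and 1087 in ire1a ire1b with tunicamycin, 5346, 2709 and 988.1 in ire1a ire1b with mock, 2503, 6795 and 1322 in WT with tunicamycin, and 5847, 2855 and 1512 in WT with mock. It was lowest on array 3 in each of the 4 groups. Its highest array was 6.88-fold above its lowest, and the difference between genotypes under mock was −0.27 ± 0.67. The rpl33 signal was 1724, 1475 and 6690 in ire1a ire1b with tunicamycin, 2225, 1946 and 4216 in ire1a ire1b with mock, 1811, 1776 and 3201 in WT with tunicamycin, and 2059, 1378 and 1787 in WT with mock. Here array 3 was the highest in 3 of the 4 groups. Because psbC, rpl33 and psbK were singled out by their spread after the values were seen, these ranks are a description.

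**Figure D4:**
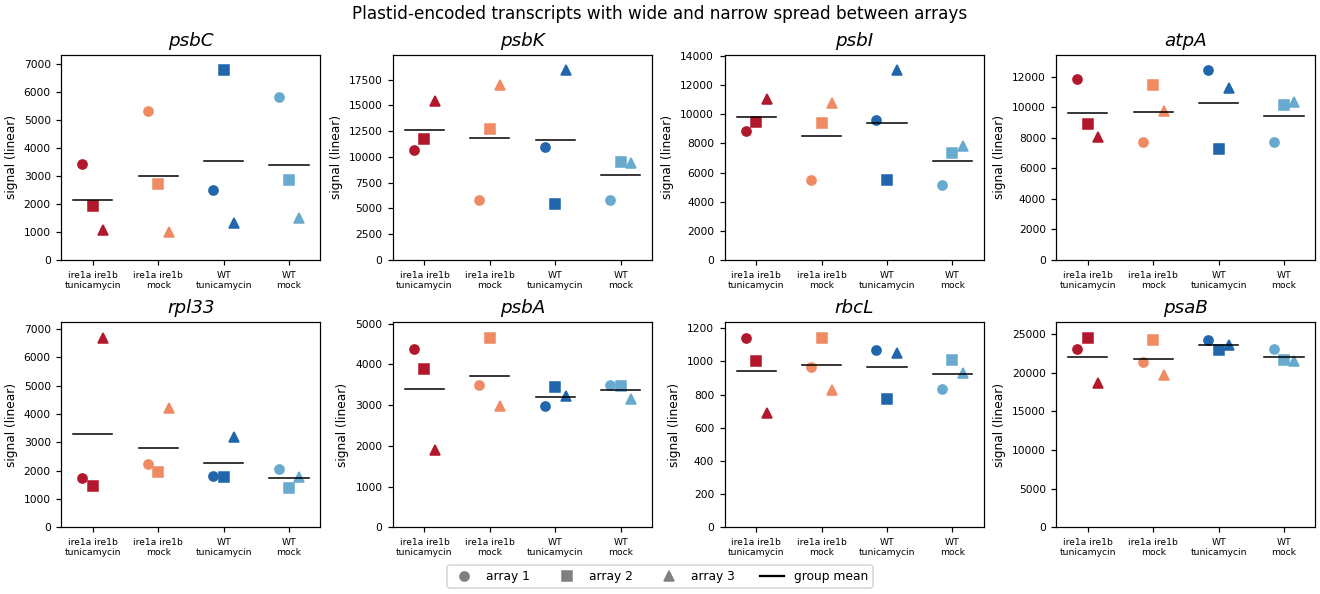
Linear signal of 8 plastid-encoded transcripts on the 12 arrays by group, chosen for wide or narrow spread, with circles, squares and triangles for arrays 1, 2 and 3 and a black line for the group mean. The psbC signal of array 3 is the lowest in every group, while psaB (a reaction centre protein of photosystem I) stays between 18712 and 24558.

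In each of the 4 groups more members lay above the group mean on array 1 than on array 3. Array 2 did not always lie between them. On arrays numbered 1, between 38 and 53 of the 66 members lay above the mean of their own group; on arrays numbered 2, between 25 and 41; and on arrays numbered 3, between 15 and 26. Over all tested probe sets the share above the group mean ran from 51.9% to 54.1% on arrays 1, from 49.4% to 53.6% on arrays 2 and from 45.5% to 50.7% on arrays 3. With the array number as a term in the model, that term passed for 6 of 66 members (9.09%), against 0.681% of all tested probe sets. Same-numbered arrays did not move together in every comparison. Between WT tunicamycin and mock the members' deviations correlated at −0.18, −0.19 and 0.73 for numbers 1, 2 and 3. Between the genotypes under tunicamycin they correlated at 0.10, 0.003 and 0.39. The labels do not say what the numbers stand for. Each number occurs once in every group, and its part in the genotype and treatment results was not tested beyond the fit with the number as a block.

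The classes did not move together from array to array. On array 3 of ire1a ire1b with tunicamycin the polymerase and ribosomal genes had a median of 0.27 above their mean over the 12 arrays, while the photosynthesis genes had −0.18. On array 2 of that group the values were −0.31 and 0.05. On the ire1a ire1b mock arrays 1, 2 and 3 the polymerase and ribosomal genes had medians of 0.20, −0.08 and 0.19. On the WT mock arrays 1, 2 and 3 the same genes had −0.00, −0.26 and −0.29. The lowest mutant mock array thus lay below the highest WT mock array.

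**Figure D5:**
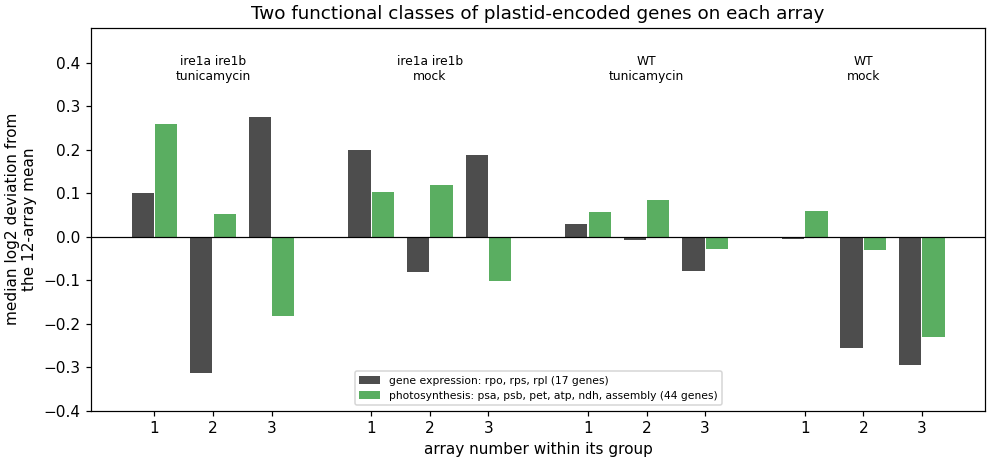
Median log2 deviation from the mean over 12 arrays of the 17 gene expression genes (dark bars) and the 44 photosynthesis genes (green bars), for each array by group and array number. The dark bars run from −0.31 to 0.27 and are lowest on array 2 of ire1a ire1b with tunicamycin and on WT mock arrays 2 and 3.

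Nuclear genes for photosynthesis were read for comparison from a list of 43, of which only 7 were paired with a tested probe set (PSBY, PSAN, LHCB4.1, PSAE-1, ATPC1, LHCB4.2 and PSBW). In limma 0 of 7 passed in any of the 7 comparisons. At an unadjusted p below 0.05, 2 were lower in ire1a ire1b under mock, against 5.39% of all tested probe sets. Under tunicamycin 2 were lower, against 12.1% of all. In both comparisons 0 were higher, against 2.69% and 10.9% of all. Their median change was 0.05 for tunicamycin in WT, −0.09 between the genotypes under mock and −0.11 under tunicamycin. Their summed signal ran from 102812 to 121352 in ire1a ire1b with tunicamycin, from 107994 to 112005 in ire1a ire1b with mock, from 119384 to 124919 in WT with tunicamycin and from 114844 to 120419 in WT with mock. Lists of nuclear sigma factors and polymerases (1 of 8 paired, too dim to be tested), of proteins associated with the plastid polymerase (0 of 12 paired) and of plastid RNA decay factors (0 of 8 paired) gave no value.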

How the data were processed

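The deposited values are linear intensity (the MAS5 signal of each probe set). MAS5 is named in the submitters' processing notes; no version or scaling target was found in the sources used here. The 2% trimmed mean was about 500.1 on every array, so a common scaling was applied before deposit, and all changes are relative to the bulk of the array. The table held 22810 probe sets, 64 of them controls. Genes were named from the platform's gene table, with locus names, symbols and gene order from RefSeq (assembly TAIR10.1); RefSeq lists 78 plastid protein-coding symbols. No sequences were used, and start positions served only to put the genes in order.

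Signals were taken as log2 and not normalized further. Probe sets with a mean log2 signal above the 40th percentile (6.10, a signal of 68.7) were fitted in limma 3.58.1 (R 4.3.3) with 1 mean per group and eBayes with an intensity trend. The 7 comparisons were tested two-sided, and p-values of all 13647 probe sets were adjusted by Benjamini-Hochberg (threshold 0.05). The fit was tested on simulated data. With 3 arrays a group, the smallest exact permutation p is 0.1. Array numbers were checked as pairs. Over all tested probe sets, deviations of arrays with the same number correlated above 0.1 for all 3 numbers between ire1a ire1b tunicamycin and mock (0.11, 0.44 and 0.51) and in no other comparison. Over the plastid members they did so there (0.57, 0.67 and 0.75), where a block changed no member's call, and between the genotypes under mock (0.76, 0.43 and 0.72), where the blocked values are given.

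Members named were those past the threshold, those of smallest p per functional group and comparison, and a fixed set of familiar genes; psbK, psbI and rpl33 are also named for their spread. The members and lists were chosen with earlier results of these data known. psbN was taken out of the psbB operon list because it lies on the opposite strand.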

Additional observations from a re-analysis of the deposited data

How the results depend on the processing

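No called result changed direction under the alternatives run, but the call of petG in WT was lost in several and other calls were gained. The median over all members was not steady. For tunicamycin in ire1a ire1b it ran from −0.14 to 0.04 with 1 array left out. For the difference of responses it ran from 0.07 to 0.28. For tunicamycin in ire1a ire1b and for the difference of responses the counts were 0 and 0 throughout. Members higher with tunicamycin in WT (1) (0.432% of all tested probe sets) numbered 0 without the filter (0.273%), 0 without the intensity trend (0.454%), 2 with the replicate number as a block (petG and rpl32; 0.652%), 3 with only the groups compared (0.85%), and 0 to 2 with 1 array left out. Members higher in ire1a ire1b under mock (0; 0.161%) numbered 1 with the replicate block (psbN; 0.3%), 10 with array weights (2.26%), 1 with the block and each array centred on its median (0.381%), 1 with only the groups compared (0.147%), and 0 to 1 with 1 array left out. Under tunicamycin the higher count (0, against 6.68%) was 1 with the block (8.17%), 2 with block and centring (9.45%), and 0 to 1 with 1 array left out. The lower count there (0, against 3.03%) was 0 to 2 with 1 array left out, the 2 being without ire1a ire1b tunicamycin array 1 (2.99%). Averaged over treatments the higher count (1, against 4.44%) was 3 with centring (5.64%), 4 with the block (5.93%), 6 with array weights (8.13%), 9 with block and centring (7.61%), and 1 to 8 with 1 array left out, the 8 being without ire1a ire1b tunicamycin array 2 (3.66%). The lower count (0, against 3.85%) was 1 with the block (5.61%) and 0 to 1 with 1 array left out. Averaged over genotypes the higher count (0, against 0.374%) was 1 with the block (0.528%) and 1 with array weights (1%). The block with centring was chosen after seeing the data. Over all probe sets, 5 of 6 arrays in the ire1a ire1b comparison, 4 of 6 in the WT comparison, and 6 of 6 and 1 of 6 in the genotype comparisons under mock and tunicamycin correlated best with their own number. The cause of these moves was not tested. With 12 arrays, MAS5 scaling and 8 probe sets that cannot be assigned to 1 plastid gene, small changes and changes common to most of the array were not detectable.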

Other observations

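The signal of psbC and those of 3 neighbouring genes, psbK, psbI and atpA, had opposite extremes on the same arrays. The psbC signal was at its 3 highest, 5346, 6795 and 5847, on ire1a ire1b mock array 1, WT tunicamycin array 2 and WT mock array 1. On those same arrays psbK had its 3 lowest signals, 5828, 5463 and 5861, against 9444 to 18417 on the other arrays. The psbI signal, from the gene beside psbK and also of photosystem II, was lowest there too, at 5462, 5461 and 5154. So was atpA, a subunit of ATP synthase whose gene lies next in genome order, at 7760, 7244 and 7754. These 3 arrays come from 3 groups, and 2 of them carry the number 1. The pattern was seen after the values were known and was not tested.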
